A study of Mus musculus with 6 samples.

Results

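The genes of oxidative phosphorylation in primary microglia (PM) were examined, namely every gene of the count tables whose symbol begins with Nduf followed by a, b, c, s or v, with Uqcr, with Cox and a digit from 4 to 8, or with Atp5, together with Sdha, Sdhb, Sdhc and Sdhd. The pattern uses no measured value and selected 92 of 24411 genes. The samples were 3 libraries of PM given GSK-J4 alone (10 μM) and 3 given the same dose together with LPS (10 ng/ml), each at 4-h, so both groups carry the inhibitor. GSK-J4 is an inhibitor of the H3K27 demethylase JMJD3, and LPS is a bacterial cell wall component that activates microglia. PM were shaken off mixed glial cultures that had been grown from pooled whole brains of 3-day-old ICR mice. Untreated and LPS-only PM were not analysed here, and each fold change below is that of LPS + GSK-J4 over GSK-J4.

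Oxidative phosphorylation takes place at the inner mitochondrial membrane. Complex I (NADH dehydrogenase) and complex II (succinate dehydrogenase) feed electrons to ubiquinone, complex III passes them to cytochrome c, and complex IV (cytochrome c oxidase) hands them to oxygen. Complexes I, III and IV pump protons, and complex V (ATP synthase) uses the return of those protons to make ATP. Macrophages and microglia activated by LPS are known to lean on glycolysis, and itaconate, made in such cells, is a known inhibitor of succinate dehydrogenase. By symbol the 92 genes comprised 36 subunits of complex I, 4 of complex II, 8 of complex III, 20 of complex IV, 15 of complex V and 9 assembly factors and related genes. They lie on 19 chromosomes. The 13 subunits encoded in mitochondrial DNA are not among the symbols of the tables and were not analysed here.

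The libraries held 2597505 to 3472716 counted fragments. The ribosomal RNA precursor Rn45s took 22.2 to 32.4% of them in the GSK-J4 group and 45.8 to 48.1% with LPS added. Between 1374377 and 2443344 fragments per library remained outside Rn45s, Mir6236 and Lars2. Levels are given as CPM (counts scaled to library size) after TMM scaling, in which 3 counts in a library amount to between 0.670 and 1.23 CPM. Replicate 3 stood apart in both groups: chi-square divided by its degrees of freedom, between the counts of libraries of one group, was 2.12 and 2.32 for replicates 1 and 2, and between 5.81 and 12.5 for the pairs with replicate 3. These counts include Rn45s, which took 32.4% of fragments in GSK-J4 replicate 3 against 22.2 and 22.3% in GSK-J4 replicates 1 and 2. Its part in the chi-square values was not tested. The sum over 9 microglial markers, among them Csf1r and Cx3cr1, ranged from 3165 to 3327 CPM with GSK-J4 alone and from 2534 to 2683 CPM with LPS added. Of these 9, Csf1r and Cx3cr1 fell (edgeR, adjusted p of at most 0.05). Of the tested markers of other cells, 3 of 6 rose for astrocytes, 2 of 5 for oligodendrocytes, 2 of 2 for neurons, 1 of 1 for endothelium and 0 of 4 for mesenchymal cells, and none fell. The neuronal list held 5 markers, of which only Tubb3 and Stmn2 were tested, and the endothelial list 3, of which only Cdh5 was. Among the untested ones, all of low counts, the means of Rbfox3, Syt1 and Pecam1 were lower with LPS added and that of Snap25 was higher. Over all genes tested, 13.7% were called higher and 9.91% lower. The astrocyte sum ranged from 50.9 to 56.2 CPM without LPS and from 125 to 152 CPM with it, and the oligodendrocyte sum was between 138 and 162 CPM against between 228 and 261 CPM. The neuronal sum was between 10.8 and 11.2 CPM against between 26.7 and 29.99 CPM, the mesenchymal sum between 69.0 and 252 CPM against between 125 and 380 CPM, and the endothelial sum between 11.2 and 16.2 CPM against between 17.9 and 55.0 CPM, with Cldn5 at 0 in all libraries. The mesenchymal sums overlapped between the groups and the other sums did not. Taken singly, 38.2% of all genes tested had groups that did not overlap. The part of these cells in the results below was not tested, and in such bulk samples fewer cells of a type and less RNA per cell cannot be told apart.

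Most of these genes were expressed, and very few of them differed between the groups. Of the 92, 78 had enough counts to be tested by edgeR's quasi-likelihood method, with adjustment over all 10133 genes tested. At an adjusted p of at most 0.05, Sdhd, a membrane anchor of complex II, fell and Ndufaf3, an assembly factor of complex I, rose. These 2 genes are 2.56% of the 78 tested, whereas 23.6% of all genes tested were called, 9.91% of them lower and 13.7% higher. At the thresholds of the study (adjusted p up to 0.01, and 1.5 or more on the log2 scale whether higher or lower) edgeR called 0 of the 78 genes, against 3.76% of all genes. At an unadjusted p under 0.05, edgeR found 3 lower and 7 higher members, against 34.8% of all genes in either direction. DESeq2 called none of the members at an adjusted p of at most 0.05, against 9.89% of the genes it was run on.

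The fold changes themselves were small, as the plot of fold changes by complex shows. The median log2 fold change of the 78 genes was 0.06, that of all genes tested was -0.00058, and the members ranged from -0.72 for Ndufs4 to 1.20 for Ndufaf3. The log2 fold change was negative for 31 members and positive for 47. It lay within 0.5 of zero for 70 of the 78, or 89.7%, against 67.6% of all genes. A p that misses the threshold does not show that a gene was unaffected, so the intervals are given too. The 95% interval of the log2 fold change lay wholly between -1 and 1 for 69 of the 78 members, or 88.5%, against 64.6% of all genes tested, so that for these members a 2-fold change in either direction lay outside the interval. It lay within a 1.5-fold change for 40 members. The median distance from the estimate to the end of its interval was 0.40 for the members and 0.46 for all genes, so the members' intervals were somewhat narrower.

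**Figure D1:**
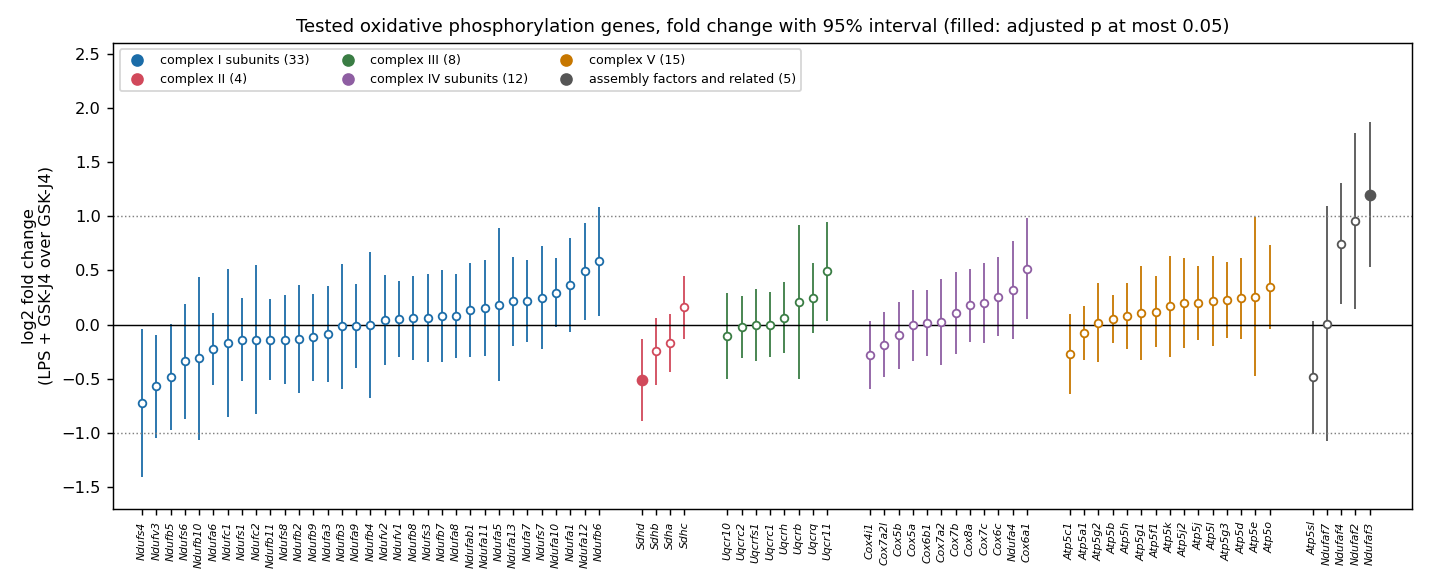
Log2 fold change of LPS + GSK-J4 over GSK-J4 (vertical axis) for the genes tested, 1 of complex I left out, grouped by complex and ordered within it. Circles are edgeR estimates, bars are 95% intervals, filled circles mark Sdhd and Ndufaf3, and dotted lines mark a 2-fold change. Most estimates lie within 0.5 of zero, and none of the 5 assembly factors and related genes has its interval wholly between the dotted lines.

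**Figure D2:**
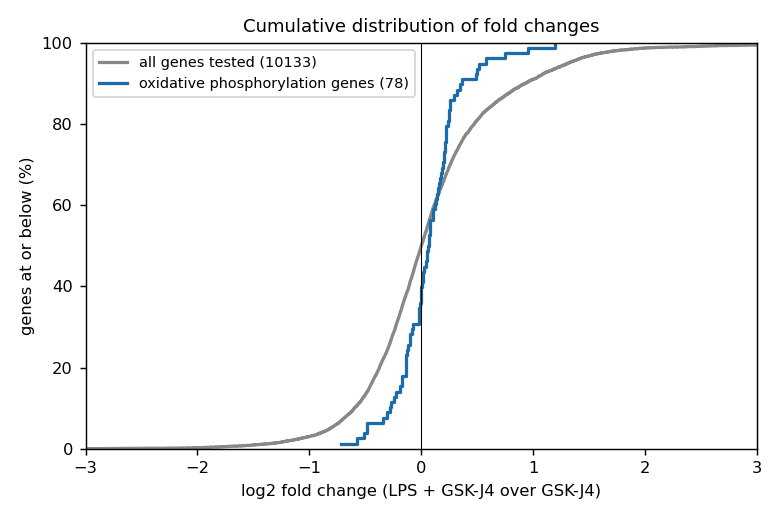
Cumulative share of genes in percent (vertical axis) at or below a log2 fold change (horizontal axis), for the 78 oxidative phosphorylation genes and for all 10133 genes tested. The members' line is steeper around zero, with 89.7% of the members within 0.5 of zero against 67.6% of all genes. Genes beyond 3 in either direction are outside the axis.

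The summed level of all 92 genes was 2909, 2904 and 2991 CPM in replicates 1, 2 and 3 of GSK-J4 and 2936, 3107 and 3007 CPM in LPS + GSK-J4. The means were 2935 ± 48.5 and 3017 ± 85.6 CPM (SD, n = 3), a ratio of 1.03, and the groups overlapped. Each library put between 0.532 and 0.566% of its counts outside Rn45s, Mir6236 and Lars2 on these genes. By complex, the ratio of the mean sums was 1.02 for complex I, 0.890 for complex II, 1.06 for complex III, 1.04 for complex IV and 1.05 for complex V. Complex II was the complex with the lowest ratio and the one whose libraries did not overlap. Its 4 genes summed to 252, 262 and 248 CPM in GSK-J4 and to 226, 229 and 222 CPM in LPS + GSK-J4, or 254 ± 7.37 against 226 ± 3.58 CPM (SD, n = 3).

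Complex II is the only respiratory complex that is also an enzyme of the tricarboxylic acid cycle, and all of its subunits are encoded in the nucleus. Sdhd (mm10 chromosome 9, 50596357 to 50603812, minus strand) was at 41.3, 54.3 and 48.5 CPM in GSK-J4 and at 39.6, 34.9 and 26.3 CPM in LPS + GSK-J4. The groups did not overlap, although the lowest GSK-J4 library and the highest LPS + GSK-J4 library lay close together. Its log2 fold change was -0.51 with a standard error of 0.18 (edgeR, adjusted p = 0.0466), just inside the threshold. The call was lost with DESeq2 (adjusted p = 0.0679), with at least 10 counts required in every library (edgeR, adjusted p = 0.0501), and without any 1 of GSK-J4 replicate 2, GSK-J4 replicate 3, LPS + GSK-J4 replicate 2 or LPS + GSK-J4 replicate 3 (edgeR, adjusted p = 0.211, 0.0932, 0.107 and 0.110), with the log2 fold change between -0.56 and -0.37 in all of these. Without replicate 3 of both groups it was -0.35 (edgeR, adjusted p = 0.104).

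The other 3 subunits of complex II did not pass the test. Sdhb, the iron-sulfur subunit, was at 65.0, 60.1 and 62.4 CPM in GSK-J4 and at 43.9, 55.0 and 59.2 CPM in LPS + GSK-J4, with a log2 fold change of -0.25 (95% interval -0.56 to 0.06; edgeR, adjusted p = 0.254). Sdha, the flavoprotein that oxidizes succinate, was at 92.7, 92.0 and 87.2 CPM against 86.2, 82.0 and 73.5 CPM, with a log2 fold change of -0.17 (95% interval -0.44 to 0.10). Sdhc, the other membrane anchor, had the opposite sign, at 52.6, 55.6 and 49.6 CPM against 56.7, 56.9 and 62.9 CPM and a log2 fold change of 0.16 (95% interval -0.13 to 0.45). In each of these 3 genes the libraries of one group lay wholly on one side of the other, which was so for 38.2% of all genes tested, 18.4% lower and 19.8% higher. Among the 78 members it was so for 8 lower and 8 higher. The membrane anchors Sdhc and Sdhd, which sit together in the complex, thus had log2 fold changes of opposite sign, and the 95% interval of Sdhd was -0.89 to -0.14. The difference between the genes was not tested.

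Assembly factors help to build complex I and are not part of the finished enzyme. Ndufaf3 (mm10 chromosome 9, 108565537 to 108567434, minus strand) was at 2.82, 4.24 and 4.74 CPM in GSK-J4 and at 10.5, 7.59 and 8.63 CPM in LPS + GSK-J4, with no overlap. This rested on between 12 and 27 counts per library. The log2 fold change was 1.20 with a standard error of 0.31 (edgeR, adjusted p = 0.0112). The call was lost with DESeq2 (log2 fold change 1.15, adjusted p = 0.0744) and without GSK-J4 replicate 1 (log2 fold change 0.99; edgeR, adjusted p = 0.0627). Exons of Ndufaf3 overlap those of Impdh2 on the opposite strand in the GENCODE annotation, and the counts used are those of one strand.

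Another pair of assembly factors had positive log2 fold changes of similar size but missed the threshold. Ndufaf4 was at 6.10, 7.59 and 6.57 CPM in GSK-J4 and at 12.4, 9.11 and 12.7 CPM in LPS + GSK-J4 (log2 fold change 0.75, 95% interval 0.19 to 1.31; edgeR, adjusted p = 0.0510). Ndufaf2 was at 2.35, 3.80 and 2.55 CPM against 5.05, 7.97 and 4.11 CPM (log2 fold change 0.95, 95% interval 0.14 to 1.76; edgeR, adjusted p = 0.0839). In both genes all 3 LPS + GSK-J4 libraries lay above all 3 GSK-J4 libraries. The calls moved with the settings. Ndufaf4 was called with unstranded counts, with Rn45s, Mir6236 and Lars2 removed, with at least 10 counts in every library and without LPS + GSK-J4 replicate 2. It was also called with the replicate number as a block. Ndufaf2 was called without LPS + GSK-J4 replicate 3 (log2 fold change 1.13; edgeR, adjusted p = 0.0422), whereas without LPS + GSK-J4 replicate 2 its log2 fold change was 0.63 (edgeR, adjusted p = 0.366). Ndufaf4 is a factor that acts with Ndufaf3 early in the assembly of complex I, and Ndufaf2 acts late in it. Ndufaf7, a methyltransferase for a subunit of complex I, had a log2 fold change of 0.0068 with a wide interval of -1.08 to 1.09. Atp5sl was lower in all 3 LPS + GSK-J4 libraries (log2 fold change -0.49; edgeR, adjusted p = 0.172). Ndufaf1, Ndufaf5, Ndufaf6 and Atp5s, the other 4 of this class, had too few counts to be tested. The class median was 0.75 over the 5 genes tested, of which none had a 95% interval wholly within a 2-fold change.

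**Figure D3:**
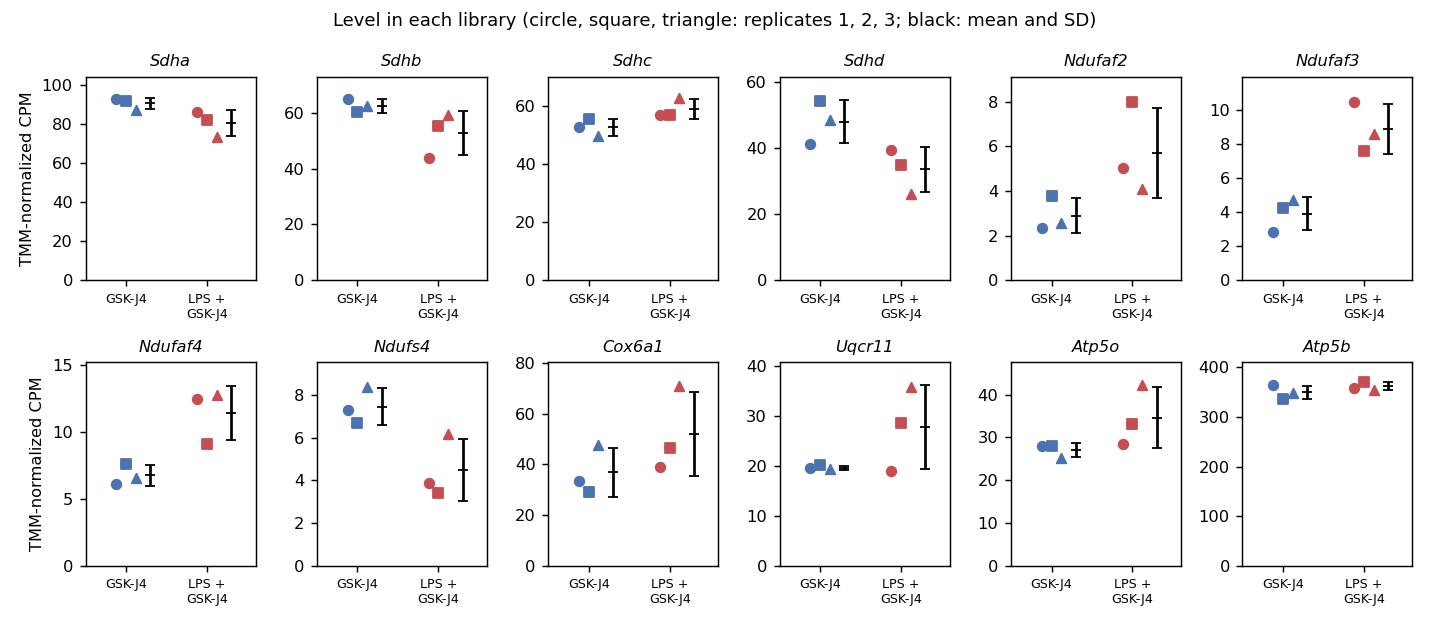
TMM-normalized CPM (vertical axis, from 0) in each library for 12 of the genes described, GSK-J4 in blue and LPS + GSK-J4 in red. Circles, squares and triangles are replicates 1, 2 and 3, and the black mark with its bar is the mean and SD over 3 libraries. The groups part without overlap for the Sdh genes, Ndufaf2, Ndufaf3, Ndufaf4, Ndufs4 and Atp5o, and overlap for Cox6a1, Uqcr11 and Atp5b.

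Of the 36 subunits of complex I, 34 were tested and edgeR called none at an adjusted p of at most 0.05, with 2 lower and 2 higher at an unadjusted p under 0.05 and none called by DESeq2. Negative and positive log2 fold changes were equally frequent, 17 of each, and the median was 0.02. The gene with the largest difference was Ndufs4, a late-assembled accessory subunit, at 7.28, 6.70 and 8.39 CPM in GSK-J4 against 3.88, 3.42 and 6.16 CPM with LPS added. Its log2 fold change was -0.72 (95% interval -1.40 to -0.04; edgeR, adjusted p = 0.122), and its libraries did not overlap, although it held no more than 31 counts in any library. Of the core subunits, Ndufv1, which binds the flavin, had a log2 fold change of 0.05 (95% interval -0.30 to 0.40), and Ndufs1, the largest of them, of -0.14 (95% interval -0.52 to 0.24). Ndufs7 and Ndufs8, which carry iron-sulfur clusters, had log2 fold changes of 0.25 (95% interval -0.23 to 0.72) and -0.14 (95% interval -0.55 to 0.27). The highest level per kb of transcript among complex I subunits was that of Ndufa6, an accessory subunit, with 71.2 ± 0.731 CPM per kb without LPS and 60.8 ± 8.83 with it (SD, n = 3), a log2 fold change of -0.23 (edgeR, adjusted p = 0.337). Ndufa2 and Ndufs5 were not tested, the first for low counts and the second since it was listed at 0 in all 6 libraries. Of the 101-base stretches of the Ndufs5 transcript, 19.7% also occur in another gene, and STAR does not count fragments that map to several places. By comparison, Atp5g2, with 86.4% of such stretches shared, held between 80 and 144 counts per library. Whether shared stretches account for the zero of Ndufs5 was not tested.

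All 8 genes of complex III were tested and edgeR called none at an adjusted p of at most 0.05, with 1 higher at an unadjusted p under 0.05 and none called by DESeq2. All 8 intervals lay within a 2-fold change. Uqcr11, a small accessory subunit, had the largest difference, with 19.5, 20.1 and 19.3 CPM in GSK-J4 against 19.0, 28.5 and 35.7 CPM with LPS added (log2 fold change 0.49; edgeR, adjusted p = 0.113). Only replicates 2 and 3 of LPS + GSK-J4 lay above GSK-J4, and the call was gained without LPS + GSK-J4 replicate 1 (log2 fold change 0.70; edgeR, adjusted p = 0.0201). The log2 fold change was 0.27 both without LPS + GSK-J4 replicate 3 (edgeR, adjusted p = 0.372) and without replicate 3 of both groups (edgeR, adjusted p = 0.360). The gene with the highest level per kb was Uqcrh, the hinge subunit, at 74.7 ± 6.50 CPM per kb in GSK-J4 and 78.1 ± 7.66 CPM per kb in LPS + GSK-J4 (SD, n = 3), a log2 fold change of 0.06 (95% interval -0.26 to 0.39). Uqcrc1, a core subunit, had a log2 fold change of -0.00018 (95% interval -0.30 to 0.30).

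Complex IV contains subunits that exist as isoforms of different tissues, and the isoforms were far apart in level in PM. Its other 8 genes stayed below the filter on low counts: Cox4i2, Cox6a2, Cox6b2, Cox7a1, Cox7b2, Cox8b, Cox8c and Ndufa4l2. Cox6a2, Cox7a1 and Cox8b are known as isoforms of heart and skeletal muscle, and Cox4i2 and Ndufa4l2 as forms induced by low oxygen. Cox8a, the ubiquitous form, stood at 150 ± 21.9 CPM per kb in GSK-J4 and 169 ± 36.0 CPM per kb in LPS + GSK-J4 (SD, n = 3), while Cox8b and Cox8c were listed at 0 in all libraries. Cox4i1 stood at 102 ± 9.23 and 83.5 ± 13.4 CPM per kb, and Cox4i2 at 0 in every library but one, which held 0.380 CPM, below the level of 3 counts. Cox6a1 stood at 64.4 ± 17.1 and 91.0 ± 29.1 CPM per kb against 2.32 ± 0.865 and 1.13 ± 1.47 CPM per kb for Cox6a2. Cox7a2 stood at 48.9 ± 7.49 and 49.99 ± 10.04 CPM per kb and Cox7a2l, which takes part in respiratory supercomplexes, at 57.2 ± 4.34 and 50.2 ± 4.87 CPM per kb, while Cox7a1 stood at 1.32 ± 1.27 and 0.322 ± 0.558 CPM per kb. Cox6b1 stood at 82.9 ± 9.21 and 84.1 ± 3.15 CPM per kb and Cox6b2, known from testis, at 0.936 ± 0.903 and 1.91 ± 1.65 CPM per kb. Ndufa4 stood at 39.4 ± 6.87 and 48.6 ± 12.9 CPM per kb, and Ndufa4l2 was at 0 in all libraries but 1. In both groups the same member of each of these pairs was the higher one. The low members held at most 10 counts in any library, so differences of theirs between the groups were not detectable at this depth.

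**Figure D4:**
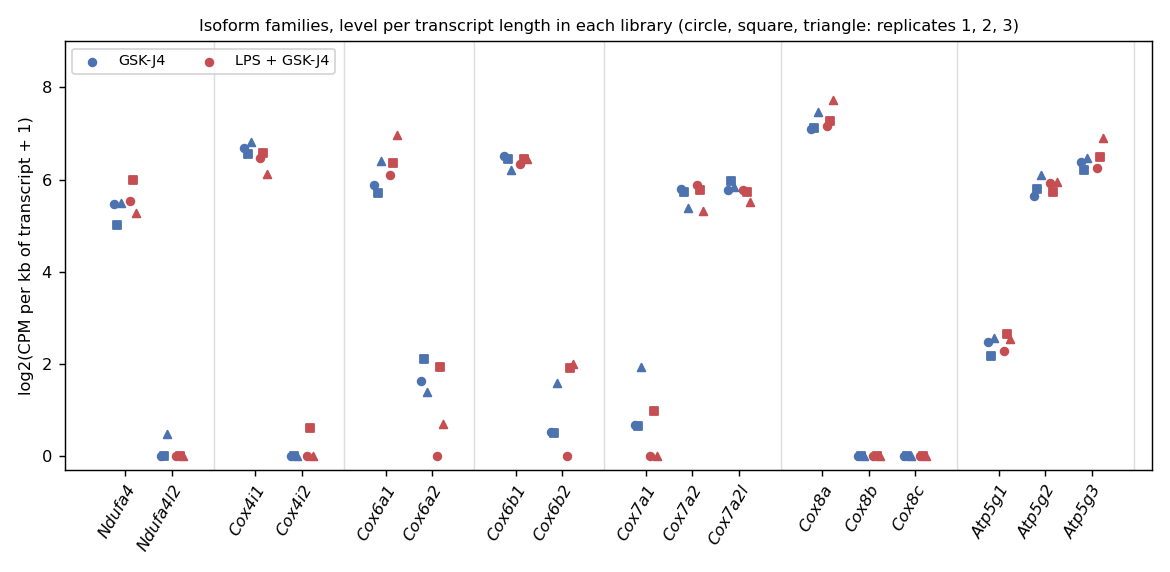
Log2 of CPM per kb of transcript plus 1 (vertical axis) in each library for 7 isoform families, GSK-J4 in blue and LPS + GSK-J4 in red, with circles, squares and triangles for replicates 1, 2 and 3. In every library the ubiquitous forms Ndufa4, Cox4i1, Cox6a1, Cox6b1, Cox7a2, Cox7a2l and Cox8a lie above 5 on this scale, and their partners lie below 2.2.

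Of the 12 complex IV genes tested, edgeR called none at an adjusted p of at most 0.05, with 1 higher at an unadjusted p under 0.05 and none called by DESeq2. All 12 intervals lay within a 2-fold change, and the median was 0.06. Cox6a1 had the largest difference, at 33.3, 29.3 and 47.8 CPM in GSK-J4 and at 38.8, 46.3 and 70.7 CPM in LPS + GSK-J4 (log2 fold change 0.52, 95% interval 0.05 to 0.98; edgeR, adjusted p = 0.107). Replicate 3 was the highest library in both groups, and the GSK-J4 replicate 3 lay above LPS + GSK-J4 replicates 1 and 2. Without replicate 3 of both groups the log2 fold change was 0.45 and the call was gained (edgeR, adjusted p = 0.0332). The call was also gained without GSK-J4 replicate 3 alone (log2 fold change 0.72; edgeR, adjusted p = 0.0319) and without LPS + GSK-J4 replicate 1 (log2 fold change 0.69; edgeR, adjusted p = 0.0351). So it was without the filter on low counts (edgeR, adjusted p = 0.0443) and with the replicate number as a block (edgeR, adjusted p = 0.00462). Without LPS + GSK-J4 replicate 3 alone the log2 fold change was 0.24 (edgeR, adjusted p = 0.384). Cox4i1, the regulatory subunit that binds ATP, had the lowest log2 fold change of the class, -0.28 (95% interval -0.60 to 0.03).

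Complex V held the largest sum of CPM, a quantity that is not scaled to transcript length. Its 15 genes summed to 989 ± 15.03 CPM without LPS and 1038 ± 38.9 CPM with it (SD, n = 3). Atp5b, the catalytic beta subunit, was at 364, 337 and 348 CPM in GSK-J4 and at 359, 371 and 355 CPM in LPS + GSK-J4, the highest level per kb of all 92 genes, with 182 ± 7.18 and 189 ± 4.22 CPM per kb. Its log2 fold change was 0.05 (95% interval -0.17 to 0.27; edgeR, adjusted p = 0.782), one of the tightest estimates among the members. Atp5a1, the alpha subunit, had a log2 fold change of -0.08 (95% interval -0.32 to 0.17). Of the 15 genes, 13 had a positive and 2 a negative log2 fold change, with a median of 0.17, yet edgeR called none at an adjusted p of at most 0.05, none reached an unadjusted p under 0.05, and DESeq2 called none. Every interval lay within a 2-fold change. The largest difference was that of Atp5o, the stalk subunit OSCP, at 27.9, 27.9 and 25.2 CPM against 28.3, 33.0 and 42.3 CPM (log2 fold change 0.35; edgeR, adjusted p = 0.188). In that gene the groups did not overlap, by the margin between 27.9 and 28.3 CPM, and the log2 fold change was 0.18 without LPS + GSK-J4 replicate 3 (edgeR, adjusted p = 0.516) and 0.14 without replicate 3 of both groups (edgeR, adjusted p = 0.565). The GENCODE record used for Atp5o overlaps exons of Donson and of another Atp5o record on the same strand. Of its 101-base stretches, 76.7% also occur in other records of that locus. What this overlap does to the counts of Atp5o was not tested. Atp5g1, Atp5g2 and Atp5g3 encode the same mature subunit c of the rotor ring. They stood at 4.32 ± 0.740, 57.1 ± 9.19 and 80.9 ± 7.20 CPM per kb in GSK-J4 and at 4.602 ± 0.704, 57.2 ± 4.71 and 94.3 ± 22.0 CPM per kb in LPS + GSK-J4. The value per kb of Atp5g1 rests on a principal transcript of 4660 bases. In CPM as well as per kb, Atp5g1 lay below Atp5g3 in every library. Of the 101-base stretches of Atp5g2, 86.4% also occur in pseudogenes, against 6.18% for Atp5g1 and none for Atp5g3. The order of Atp5g2 and Atp5g3 therefore cannot be read from these counts. As counted, Atp5g2 lay above Atp5g1 in every library.

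The part of the members that replicate 3 moved was followed through both groups. The difference of replicate 3 from the mean of replicates 1 and 2, on the log2(CPM + 1) scale, correlated across the 78 members between the groups with Pearson's r of 0.34 and Spearman's rho of 0.30. The same correlation over all genes tested with an annotated transcript had r of 0.31 and rho of 0.35. This is a description over genes, which share libraries and are not independent replicates. The difference was positive in both groups for 25 members, negative in both for 22 and of opposite sign for 31. The GC content of the transcripts correlated with it at r = 0.40 within GSK-J4 and 0.42 within LPS + GSK-J4, against 0.51 and 0.56 over all genes tested with an annotated transcript. Cox6a1 (58.8% GC) lay 0.60 and 0.72 above the other replicates without and with LPS, and Atp5d (61.1% GC), the delta subunit of ATP synthase, 0.39 and 0.56 above them. Uqcrb (42.2% GC), the ubiquinone-binding protein of complex III, lay lower in replicate 3 of both groups, with differences of -0.50 and -1.57. GC content and the log2 fold change between the groups were nearly uncorrelated across the members (r = 0.03). Log2 transcript length and log2 fold change had r = -0.16 and rho = -0.30 across the members, the shorter transcripts tending to higher values. Over all genes tested with an annotated transcript, r was 0.0088 and rho 0.0036. The members' transcripts were short, with a median of 892 bases against 3032 over all genes tested.

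**Figure D5:**
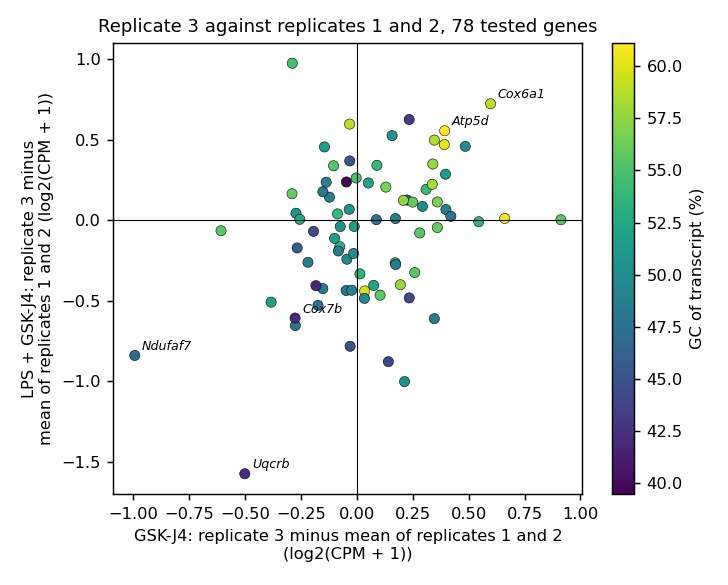
Difference of replicate 3 from the mean of replicates 1 and 2 on the log2(CPM + 1) scale in GSK-J4 (horizontal axis) and in LPS + GSK-J4 (vertical axis) for the 78 genes tested, coloured by the GC content of the transcript in percent. Cox6a1 and Atp5d lie in the upper right and Uqcrb and Ndufaf7 in the lower left, with both groups of the same sign.

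Nuclear genes of the respiratory chain are known targets of the transcription factors NRF1 and GABP (an ETS factor) and of YY1, and their promoters were therefore read. RefSeq promoters of GRCm38.p6, from 250 bases before to 50 bases after the start, were found for 73 of the 92 genes by symbol, and both strands were searched. The NRF1 motif, GCGCA followed by any base and GCGC, occurred in 19 of the 73 genes, or 26.0%, against 5.19% of all genes with such a promoter and 12.6% of those among the genes tested. The ETS motif CCGGAAG occurred in 23.3%, against 9.93% and 21.4%, and the YY1 motif AAGATGGC in 12.3%, against 3.19% and 5.77%. The GC-rich motif GGGCGGGG of SP factors occurred in 19.2%, against 19.6% and 39.4%, and TATAAA in 9.59%, against 15.7% and 8.62%. The motif of NF-kB, a factor that LPS activates, was searched as GGGA, any base and TTTCC. It was in none of the 73 genes, against 0.466% and 0.501%, and a motif this rare may be absent from 73 genes of any kind. The interferon motif, GAAA, any pair of bases and GAAA, was in 2.74%, against 3.99% and 3.81%. At least 1 of the NRF1, ETS and YY1 motifs was present in 39 of the 73 genes, and 4 genes held both NRF1 and ETS. The positions differed by motif: 20 of 26 NRF1 matches and 14 of 20 ETS matches began before the start, whereas 8 of 9 YY1 matches began between 22 and 38 bases after it. These are letter matches and not measured sites. The following 30-base stretches show some of the matches that began before the start in genes described above, in the direction of the gene, with the matched letters in capitals. CTTCCGG is the ETS motif read on the opposite strand.
Sdhd, NRF1, chr9:50603909-50603938, minus strand: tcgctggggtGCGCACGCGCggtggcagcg
Sdhd, ETS, chr9:50603878-50603907, minus strand: accgtctcctgcCTTCCGGttcacgcttca
Sdha, NRF1, chr13:74350319-74350348, minus strand: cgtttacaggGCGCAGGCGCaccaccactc
Sdha, NRF1, chr13:74350276-74350305, minus strand: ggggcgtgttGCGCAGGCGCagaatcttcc
Sdha, NRF1, chr13:74350231-74350260, minus strand: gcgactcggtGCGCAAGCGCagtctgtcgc
Ndufaf4, NRF1, chr4:24897960-24897989, plus strand: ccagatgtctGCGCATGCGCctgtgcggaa
Cox6a1, NRF1, chr5:115349101-115349130, minus strand: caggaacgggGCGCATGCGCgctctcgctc
Cox6a1, NRF1, chr5:115349056-115349085, minus strand: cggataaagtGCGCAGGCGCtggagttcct
Cox6a1, ETS, chr5:115348957-115348986, minus strand: tccccatttccgCTTCCGGcgcgccggtgt
Uqcr11, ETS, chr10:80406870-80406899, minus strand: tttctctcctccCCGGAAGtagatgtcaat

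The Sdhd matches began 79 and 46 bases before the start, and Sdhd and Cox6a1 were among the 4 genes with both motifs. Matches after the start, not printed here, included those of Sdhb (ETS), Atp5o (NRF1) and Ndufs4 (YY1). Ndufaf3 and Ndufaf2 held none of the NRF1, ETS and YY1 letters in their windows, nor did Atp5b, the member with the highest level per kb. The fold changes of genes with and without a motif overlapped. The 17 tested genes with an NRF1 match had a median log2 fold change of 0.08 (range -0.51 to 0.75), and the 49 without one had 0.06 (range -0.72 to 1.20). For the ETS motif the medians were 0.12 over 16 genes and 0.03 over 50, and for YY1 they were -0.02 over 9 genes and 0.06 over 57.

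Other genes of the pathway, from lists that do not share the symbols above, are given beside the same 23.6% of all genes called. All calls on these lists come from the main edgeR setting, and the alternatives were not examined for them. Of 32 tested assembly factors and related genes outside the symbol pattern, 3 rose and none fell, with a median log2 fold change of -0.04. These were Cox17, a copper chaperone for complex IV, which was at 14.6, 14.3 and 17.1 CPM in GSK-J4 and at 31.5, 24.7 and 23.0 CPM in LPS + GSK-J4 (log2 fold change 0.80; edgeR, adjusted p = 0.00756), Timmdc1, which assembles complex I (log2 fold change 0.90; edgeR, adjusted p = 0.0355), and Usmg5, a small protein of ATP synthase (log2 fold change 0.65; edgeR, adjusted p = 0.0186). Of 2 tested cytochromes, 1 rose. Cycs, the cytochrome c that links complexes III and IV, rose from 15.02, 14.96 and 12.8 CPM to 23.3, 28.5 and 31.2 CPM (log2 fold change 0.94, standard error 0.19; edgeR, adjusted p = 0.00194). The tested subunits of complexes III and IV had log2 fold changes of at most 0.52. Cyc1, the cytochrome c1 of complex III, had a log2 fold change of 0.23 (edgeR, adjusted p = 0.320).

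Of 11 tested nuclear regulators of respiratory genes, 1 rose. It was Gabpb1, the beta subunit of GABP, from 28.8 ± 2.22 to 47.2 ± 5.99 CPM (SD, n = 3; log2 fold change 0.71; edgeR, adjusted p = 0.00407). Gabpa, its DNA-binding partner, had a log2 fold change of -0.10, Nrf1 of -0.01 and Tfam, the factor of mitochondrial DNA, of 0.21, and none of them passed the test. Ppargc1a, a coactivator of mitochondrial biogenesis, had too few counts to be tested. Of 13 genes of the tricarboxylic acid cycle, 1 rose, Idh3a, a subunit of isocitrate dehydrogenase (log2 fold change 0.62; edgeR, adjusted p = 0.0457). Of 7 carriers and pores of the mitochondrial membranes, 1 rose, the phosphate carrier Slc25a3, from 193 ± 3.90 to 241 ± 13.9 CPM (SD, n = 3; log2 fold change 0.32; edgeR, adjusted p = 0.0436). Ucp2, an uncoupling protein of immune cells, stood at 665 ± 64.3 and 657 ± 123 CPM (SD, n = 3). Of 74 tested mitochondrial ribosomal proteins 2 rose and none fell, with a median of 0.04, and of 75 tested cytosolic ribosomal proteins 4 rose and 1 fell, with a median of 0.12.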

How the data were processed

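RNA-seq of 6 PM libraries, made with a directional kit after removal of ribosomal RNA, was analysed. The authors deposited raw read counts per gene for each library; the submitters' processing notes name CASAVA 1.8.2, Trimmomatic 0.33, STAR 2.5.1, DESeq2 and the build mm10. The annotation behind the counts is not given in the sources used here. Of the 3 count columns, the reverse-strand column was used. STAR counts only uniquely mapped fragments, and 18 of the 92 genes share between 0.606 and 86.4% of their 101-base stretches with another gene, 16 of them with a pseudogene. Stretches shared with records at the same locus are not part of this figure. These genes may be undercounted, to a degree that was not tested. Groups were taken from the sample titles. Replicates are independent samples per the study's text, and all p-values measure the spread between them.

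Counts were analysed in R 4.3.3 with edgeR 4.0.16 and limma 3.58.1: TMM factors (between 0.821 and 1.31), filterByExpr (minimum count 10, minimum total 15), the robust quasi-likelihood test without covariates, and Benjamini-Hochberg adjustment over all 10133 genes tested. Standard errors follow from its F statistic, and 95% intervals from these errors and its total degrees of freedom (residual plus prior). The script was tested on simulated data in which 200 genes were changed. Between 13919 and 15344 genes were detected per library, and 3 counts in a library was used as the floor, which covers counting error only. Levels per kb used the principal transcript of GENCODE M21 (GRCm38), in which 91 of the 92 symbols matched directly and 1 by an older symbol. Promoters came from RefSeq (GRCm38.p6). Python 3.11.15 (pandas 2.3.3, numpy 2.4.6, matplotlib 3.10.9) drew the plots.

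The members, lists and alternatives were chosen with earlier results of these data known. Of the members, 28 were named by rule: any past the thresholds of the study; in each class the called genes with the largest and smallest fold change, or the gene with the largest absolute one where none was called; the highest level per kb in each class; all Sdh genes; and the isoform families. The others named were chosen after their values were seen. Alternatives were unstranded counts, other scalings, removal of Rn45s, Mir6236 and Lars2, DESeq2 1.42.0, other count filters, a replicate block, an unadjusted p, leaving out each of the 6 libraries and, added after the data were seen, leaving out replicate 3 of both groups. Single values of 1 member and 1 marker are not reported here.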

Additional observations from a re-analysis of the deposited data

How the results depend on the processing

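The main counts at an adjusted p of at most 0.05 were 1 lower and 1 higher member (edgeR). Higher members numbered 2 with unstranded counts, with Rn45s, Mir6236 and Lars2 removed, without the filter on low counts and with at least 10 counts in every library, and lower members numbered 0 in the last. DESeq2 called 0 lower and 0 higher. An unadjusted p at the same threshold gave 3 lower and 7 higher. Leaving out 1 library at a time gave 0 to 1 lower and 0 to 4 higher, with the background between 16.0 and 23.5%. Without replicate 3 of both groups there were 0 lower and 4 higher (Cox6a1, Ndufa4, Ndufaf3 and Ndufb6), against 25.5% of all genes. The count at the thresholds of the study was 0 in every alternative run. The median log2 fold change was 0.032 to 0.075 with 1 library left out, 0.016 with DESeq2 and 0.0079 without the filter, where the median of all genes was 0.13 and 0.12. Those 2 settings covered 18016 genes and 89 members, against 10133 genes and 78 members in the main analysis. The medians are therefore over unlike sets of genes. Relative to all genes of the same set, the members lay lower in those 2 settings and higher in the main analysis, and the cause was not tested.

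The replicate numbers were checked for pairing. The correlation of deviations from the group means was -0.0102, 0.117 and 0.295 for numbers 1, 2 and 3, so not every pair exceeded 0.1 and the numbers were not taken as pairing the samples, although the value for number 3 was the highest of all pairs of libraries compared. With the replicate number as a block, 2 lower (Ndufv3, Sdhd) and 4 higher members (Cox6a1, Ndufaf3, Ndufaf4, Ndufb6) were called, Cox6a1 at an adjusted p of 0.00462 (edgeR), against 32.1% of all genes.

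Some named members changed sign. With library sizes that leave out the ribosomal features and no TMM factors, the log2 fold change was -0.014 for Atp5g2, -0.017 for Cox6b1 and -0.0062 for Cox7a2. With DESeq2 it was -0.036, -0.033 and -0.021 in the same order, and without the filter -0.039, -0.041 and -0.032, with -0.0042 for Atp5b. Without replicate 3 of both groups it was -0.072 for Cox6b1. With 1 library left out the range was -0.088 to 0.13 for Atp5g2, -0.041 to 0.22 for Atp5g1, -0.067 to 0.075 for Cox6b1, -0.096 to 0.17 for Cox7a2, -0.0052 to 0.29 for Cox8a and -0.012 to 0.13 for Uqcrh. Over the named members and alternatives, 308 values kept direction and side of the threshold, 25 changed sign, 9 lost the call and 8 gained it. Depth limits the genes with few counts: 14 of the 92 were not tested, with at most 4.89 CPM on average.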
